A study of Sus scrofa with 6 samples.

Results

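The entries described here are miRNA candidates that the authors' table lists with a name beginning with PC- and with no known miRNA name, and they are called candidates throughout. They were chosen by their measured values: a candidate was kept when its value was above 0 in at least 2 of the 6 libraries. Of 37 such names, 33 met this rule, among 1242 distinct entries in all. The table also held 467 entries with pig names, 658 with names from other species and 80 predicted opposite arms of known hairpins. The names place 17 of the 33 candidates on the 5p arm and 16 on the 3p arm of a predicted hairpin.

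Small RNA was sequenced from 3 milk exosome samples and 3 milk samples of Rongchang pigs, which carried no treatment or genetic change per the labels. Exosomes, here collected from milk, are membrane vesicles shed by cells into body fluids. The series gives 3 individuals as the replicates without stating whether a milk exosome sample and a milk sample of equal number came from the same animal, so p-values measure the spread between these samples. The 6 columns of the sheet that lists the candidates carry names that match no sample label; each was assigned to the labelled column that it equalled on 245 of 245 shared entries, while no other column equalled it on more than 76.

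A miRNA is cut from a folded precursor, a hairpin, by the enzymes Drosha and Dicer. The cut leaves a short duplex of the 5p arm and the 3p arm with 3′ ends that overhang, and usually the strand kept in the Argonaute protein becomes the abundant one. Prediction tools call a new miRNA when a read maps to a genomic stretch that could fold in this way, so a predicted candidate is a read with a possible hairpin and not yet a known gene. Bases 2 to 8 of a miRNA, the seed, carry most of its target recognition.

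The sequences most like the 2 arms of one hairpin are shown first, with paired bases in capitals. They are written 5′ to 3′ in DNA letters as deposited. All 272 pairs of a 5p and a 3p candidate were folded against each other with RNAduplex, and the median pair reached -7.7 kcal/mol and 8 base pairs. In the first 2 lines the capitals form 1 unbroken helix of 19 base pairs at -31.4 kcal/mol. In the next 2 lines they form 1 unbroken helix of 20 base pairs at -29.3 kcal/mol.

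PC-5p-7842_101: AGACGGATGACCTTGCTGTtt

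PC-3p-26218_22: aGCAGCAAGGTTGTCTGTCTtt

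PC-5p-1939_837: TTTACGTCCTTTCATCTAGTt

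PC-3p-7667_104: ACTGGGTGGGAGGACGTGAAa

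No other pair among the 272 had a helix as long, apart from the pair of PC-3p-7667_104 with PC-5p-9504_79, a shifted copy of PC-5p-1939_837. The median longest helix was 4 base pairs. The first pair holds 4 G-U pairs, with a 3′ overhang of 1 base on the 5p strand and of 2 bases on the 3p strand. The second holds 5 G-U pairs, with a 3′ overhang of 1 base on each strand. PC-5p-9504_79 paired with PC-3p-7667_104 over 19 base pairs at -28.4 kcal/mol, and its shift moved both 3′ overhangs to 2 bases, the length that Drosha and Dicer are known to leave. One more pair, PC-5p-37200_14 with PC-3p-82505_5, reached -31.5 kcal/mol with 16 base pairs, but its longest unbroken helix was 8 base pairs and the sequences consist of 88.9% and 89.5% G and C. No genome was given, so whether the members of a pair lie in 1 precursor was not tested.

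PC-5p-1939_837 and PC-5p-9504_79 share 20 bases in a row, shown in capitals in the next 2 lines. In the last of the 3 lines the capitals mark the first 12 bases of PC-3p-30050_18, which are the exact reverse complement of the first 12 bases of PC-5p-1939_837.

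PC-5p-1939_837: tTTACGTCCTTTCATCTAGTT

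PC-5p-9504_79: TTACGTCCTTTCATCTAGTTt

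PC-3p-30050_18: AAAGGACGTAAAacaggccccga

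A second set of 4 candidates is shown because all 4 carry the run TTCCCGTGG, in capitals here, which none of the 1205 entries outside the candidates carries in the strand listed. This run was picked after the sequences had been seen.

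PC-3p-34295_15: acgTTCCCGTGGaacacca

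PC-3p-615920_1: acggttcccgTTCCCGTGG

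PC-5p-50953_9: caaccacggTTCCCGTGG

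PC-5p-72206_6: tccaccccgtTTCCCGTGG

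A further set is shown because 2 candidates and 1 entry named from human share both a stretch of sequence and a pattern of detection. The capitals mark the bases that the candidate shares with hsa-miR-3168_R+1_1ss14AC, 12 in a row for PC-3p-169372_2 and 9 in a row for PC-5p-32464_16. Each pair of lines gives the candidate and then the entry.

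PC-3p-169372_2: GAGTTCTACAGTgttctac

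hsa-miR-3168_R+1_1ss14AC: GAGTTCTACAGTccgaca

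PC-5p-32464_16: CTACAGTCCacgatcatc

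hsa-miR-3168_R+1_1ss14AC: gagttCTACAGTCCgaca

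Other ties to named entries were few. No seed was shared between candidates, 5 candidates shared the seed of a named entry, and 2 of these shared it with an entry named from pig. PC-3p-16858_38 has the seed of ssc-miR-143-3p_R+1, an abundant miRNA of smooth muscle and stroma, and differs from it after the seed, as the next 2 lines show with the seed in capitals. PC-5p-8950_85 has the seed of ssc-mir-4332-p5_1ss2GT, a predicted opposite arm.

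PC-3p-16858_38: tGAGATGAgagcccttggcca

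ssc-miR-143-3p_R+1: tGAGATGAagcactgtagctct

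PC-5p-3980_260 begins with the 18 bases of the mouse-named entry mmu-miR-6412_R-4_1ss15AT and runs on past them, so reads of 1 molecule may be divided between both names. PC-3p-36498_14 shares 12 bases in a row with ggo-miR-484_R+1.

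PC-5p-3980_260: TCGAAACCATCCTCTGCTacca

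mmu-miR-6412_R-4_1ss15AT: TCGAAACCATCCTCTGCT

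PC-3p-36498_14: acccagcCTCAGTCCCCTCga

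ggo-miR-484_R+1: tcaggCTCAGTCCCCTCccgat

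The longest run shared with any named entry was 7 to 18 bases over the 33 candidates, with a median of 8.

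Values are the authors' normalized abundance, called signal here, and depth was read from it. The commonest nonzero signal of a library served as the worth of 1 read, and a signal divided by it is a read equivalent. The milk exosome libraries held 13808, 4697 and 8379841 read equivalents over all entries, and the milk libraries held 9551794, 7025 and 2875. Milk exosome 3 and milk 1 are called deep and the other 4 libraries shallow. One read was worth 9.01, 19.7 and 0.0937 units of signal in milk exosome 1, 2 and 3, against 0.0759, 14.3 and 13.8 in milk 1, 2 and 3. A high signal in a shallow library is therefore often a count of a few reads. The deep libraries also differ in makeup. A fixed list of 5 erythrocyte miRNAs, all 5 found, together took 86.7% of the signal of milk exosome 3 and 87.4% in milk 1. In the other 4 libraries this list took 2.63% to 9.30%. These shares are sums over a list, and the levels of its single members are not given here. A list of 4 muscle miRNAs, all 4 found, reached 45.9% in milk exosome 2 and at most 6.50% elsewhere. The part of this makeup in the candidates' values was not tested, and more cells of a type and more RNA per cell cannot be told apart in such bulk samples.

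The candidates were rare in both fluids. In milk exosome 1, 2 and 3 they held 0.311%, 0.660% and 0.00695% of the signal, with exact Clopper-Pearson 95% intervals of 0.225% to 0.419%, 0.449% to 0.936% and 0.00640% to 0.00755%. In milk 1, 2 and 3 they held 0.00936%, 0.142% and 1.25%, with intervals of 0.00876% to 0.00999%, 0.0683% to 0.262% and 0.879% to 1.73%. The shares overlapped between the fluids, and the deep library of each fluid lay far below its shallow ones. The mean was 0.326% ± 0.327 in milk exosomes and 0.468% ± 0.683 in milk (SD, n = 3 each), a difference of -0.142 percentage points by a two-sided exact permutation test with p = 0.8. Among the 4 shallow libraries alone, an alternative chosen after the data were seen, the difference was -0.212 percentage points and the exact p was 1.0. With 3 libraries against 3 this test cannot give a p below 0.10.

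Milk exosome 1, 2 and 3 had 15, 12 and 26 of the 33 candidates above 0, and milk 1, 2 and 3 had 28, 8 and 11. The mean number was 17.7 ± 7.37 in milk exosomes and 15.7 ± 10.8 in milk (SD, n = 3 each; difference 2.0, two-sided exact permutation p = 0.7). Among the 4 shallow libraries alone, an alternative chosen after the data were seen, the mean was 13.5 in milk exosomes and 9.5 in milk. The difference was 4.0 and the exact permutation p was 0.333, the lowest that 2 libraries against 2 can give. Over all 6 libraries, the deep library of each fluid had the most. Of the values above 0, 8, 8 and 1 stood at 1 read in the milk exosome libraries and 1, 7 and 3 in the milk libraries. Over the 4 shallow libraries, 26 of the 46 values above 0 were 1 read.

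**Figure D1:**
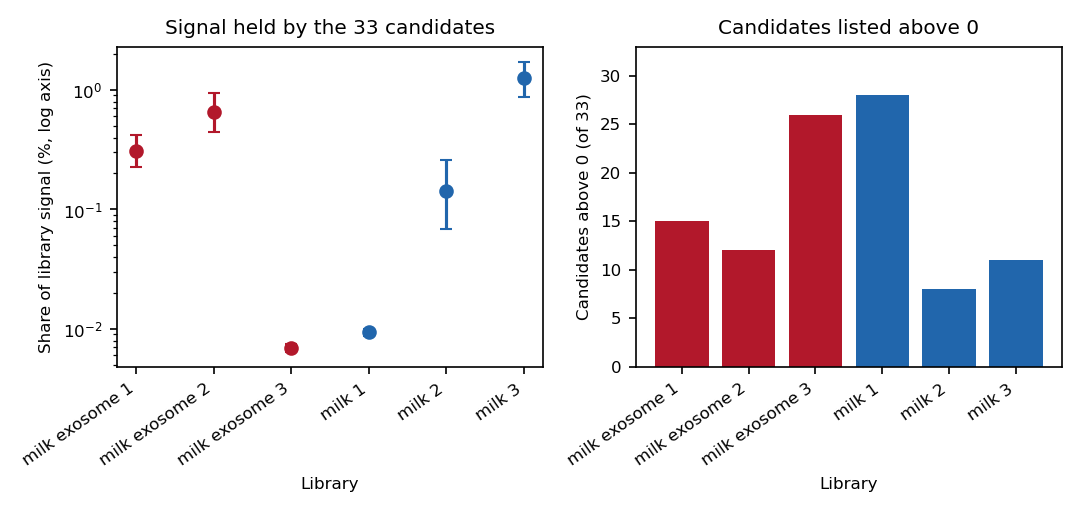
Share of each library's signal held by the 33 candidates (left, percent on a log axis, bars are exact 95% intervals that cover counting error only) and number of candidates above 0 (right), with milk exosome libraries in red and milk libraries in blue. The deep libraries, milk exosome 3 and milk 1, have the lowest shares (0.00695% and 0.00936%) and the highest numbers (26 and 28).

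No candidate was above 0 in all 6 libraries. By the rule they were above 0 in at least 2, and 12 were so in exactly 2, 11 in 3, 7 in 4 and 3 in 5. Just outside the rule were 4 candidates above 0 in 1 library: PC-3p-617061_1 at 3 reads in milk exosome 2, and PC-3p-176402_2, PC-3p-472086_1 and PC-5p-193356_2 at 1 read each in milk exosome 1. Summed over the 6 libraries, a candidate had between 3 and 311.5 read equivalents, with a median of 20; 16 candidates had under 20 and 3 had 100 or more. Of the 100 candidate values above 0, 95 were whole reads within 0.01 reads. Over all entries of the table the share of values above 0 that were whole was lower, 73.2% to 79.9% per library, so the read equivalents and the depths given here are estimates.

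**Figure D2:**
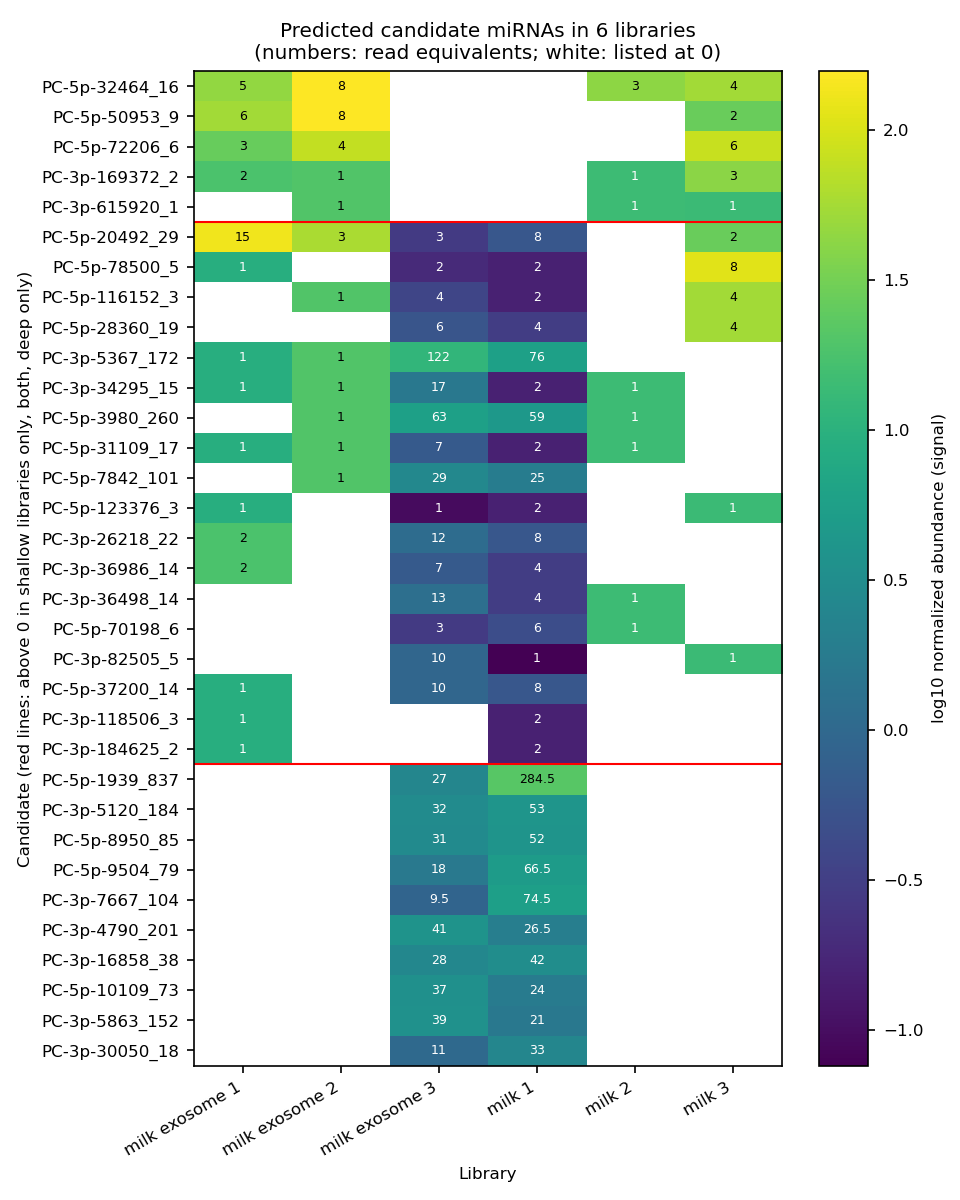
Signal of each candidate (rows) in each library (columns, milk exosome left of milk) as colour on a log10 scale, with read equivalents printed in the cells and white for values listed at 0. Of the 33 candidates, 5 were above 0 in shallow libraries only (top), 18 in both kinds (middle) and 10 in the deep libraries only (bottom).

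By depth the candidates were split into the 3 possible patterns of detection, which cross the 2 fluids. Of the candidates 30.3% were seen in deep libraries only, 15.2% in shallow libraries only and 54.5% in both kinds. The shares were 40.7%, 5.53% and 53.7% of the 832 other entries above 0 in at least 2 libraries. The 10 candidates seen in the deep libraries only were all 21 to 23 bases long, with a median of 22, the usual length of a miRNA. The 5 seen in shallow libraries only were all 18 or 19 bases long. Of the 18 seen in both kinds, 12 were 18 to 20 bases long. These counts describe the chosen candidates, and the difference in length between patterns was not tested. Among the 832 other entries above 0 in at least 2 libraries, by comparison, 34.8% of those seen in deep libraries only and 13.04% of those seen in shallow libraries only were 18 to 20 bases long.

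As a set the candidates were shorter and richer in G and C than the 832 named entries. Of the candidates 51.5% had 18 to 20 bases, against 21.9% of the named entries, and 45.5% of the candidates had 21 to 23 bases, against 69.0% of the named entries. The median GC content was 57.9% in candidates and 50.0% in named entries. A T as first base, which is frequent in miRNAs because Argonaute favours U there, was found in 27.3% of candidates and 46.4% of named entries. These differences were not tested. The 45 predicted opposite arms above 0 in at least 2 libraries were closer to the candidates in length and GC content, with 55.6% at 18 to 20 bases and a median GC content of 60.9%. In first base they were closer to the named entries, with a T in 40% of them.

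**Figure D3:**
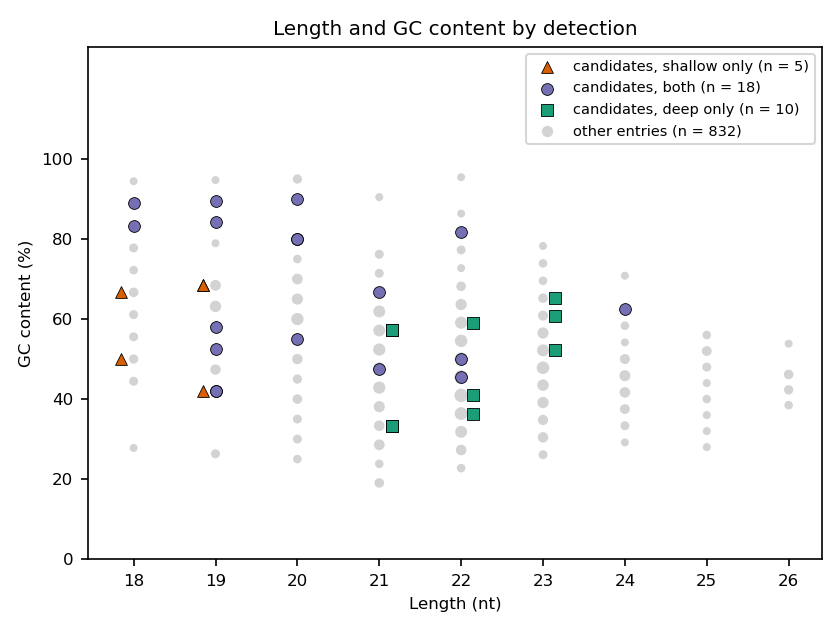
Length in bases against GC content in percent for the 33 candidates, by detection pattern (symbols shifted slightly sideways, some coincide), and for the 832 other entries (grey, larger where more entries share a point). Candidates seen in deep libraries only lie at 21 to 23 bases, those seen in shallow libraries only at 18 and 19, and all 8 candidates with a GC content of 80% or more are among those seen in both.

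A GC content of 80% or more was found in 8 candidates (24.2%) and in 13 of the 832 named entries (1.56%). All 8 were above 0 in at least 1 deep and 1 shallow library, with 10 to 19 read equivalents in all. PC-3p-36986_14, at 90.0% GC, had a signal of 18.01, 0 and 0.656 in milk exosome 1, 2 and 3, against 0.304, 0 and 0 in milk 1, 2 and 3. PC-5p-78500_5, at 80% GC, had 9.01, 0 and 0.187 in the milk exosome libraries, against 0.152, 0 and 111 in the milk libraries. Its highest value, in milk 3, was 8 reads. PC-5p-116152_3, also at 80% GC, had 0, 19.7 and 0.375 in milk exosomes, against 0.152, 0 and 55.3 in milk, so that its highest value was 4 reads in milk 3.

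No candidate passed the test between milk exosomes and milk. The limma fit over all 865 entries above 0 in at least 2 libraries called 0 entries at a Benjamini-Hochberg adjusted p under 0.05, which is 0% of those tested, and 3 had an unadjusted p under 0.05. Among the candidates 0 of 33 were called and 0 had an unadjusted p under 0.05; the smallest was 0.198, with an adjusted p of 0.999. On the log2(signal + 1) scale, 17 candidates were higher in milk exosomes and 16 were lower, beside 516 higher and 349 lower of all 865 entries. The median log2 fold change was 0.22 in the candidates, beside 0.03 over all 865 entries. A p that misses the threshold does not show that the fluids are alike, and the fold changes below carry standard errors close to their own size or larger.

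One candidate of 33, or 3.03%, had milk exosome and milk values that did not overlap, against 18 of the 865 entries, or 2.08%. It was PC-3p-5367_172, a 19-base candidate and one of the 3 with 100 or more read equivalents. Its signal was 9.01, 19.7 and 11.4 in milk exosome 1, 2 and 3, against 5.77, 0 and 0 in milk 1, 2 and 3. All 3 milk exosome values lay above all 3 milk values. In milk exosome 1 and 2 it was 1 read each, and the 3 reads that a 0 allows are worth 43.0 in milk 2 and 41.5 in milk 3, above all its milk exosome values. Its log2 fold change was 2.86 with a standard error of 2.14, and with limma the adjusted p was 0.999. Its firmest values are those of the deep libraries, 122 reads in milk exosome 3 and 76 in milk 1, a ratio of 1.98 with an exact 95% interval of 1.48 to 2.67.

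Other candidates with a small p were as uncertain. PC-5p-50953_9 had a signal of 54.0, 157 and 0 in the milk exosome libraries, against 0, 0 and 27.7 in the milk libraries, which overlap (log2 fold change 2.75, standard error 2.37). This is 6, 8 and 0 reads in milk exosomes and 0, 0 and 2 reads in milk, and the log2 fold change was 1.28 without milk exosome 2, 4.93 without milk exosome 3 and 4.36 without milk 3. PC-3p-118506_3 and PC-3p-184625_2 had the same values as each other, 9.01, 0 and 0 in milk exosomes against 0.152, 0 and 0 in milk, that is 1 read in milk exosome 1 and 2 reads in milk 1. PC-5p-70198_6 had 0, 0 and 0.281 in milk exosomes, against 0.456, 14.3 and 0 in milk (log2 fold change -1.37, standard error 1.19). Its log2 fold change was -0.15 without milk 2, where it had 1 read, and -2.12 without milk 3. PC-5p-28360_19 had 0, 0 and 0.562 in milk exosomes, against 0.304, 0 and 55.3 in milk (log2 fold change -1.85, standard error 1.87). PC-3p-82505_5 and PC-3p-36498_14 had log2 fold changes of -1.01 and -1.06, with standard errors of 1.24 and 1.38. The direction turned without milk 3 for PC-5p-28360_19 and PC-3p-82505_5, which had 4 reads and 1 read there, and without milk 2 for PC-3p-36498_14, which had 1 read there.

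PC-5p-32464_16, seen in shallow libraries only, had the highest mean signal of the 33 candidates, 50.1. It had a signal of 45.0, 157 and 0 in milk exosome 1, 2 and 3, against 0, 43.0 and 55.3 in milk 1, 2 and 3, which is 5, 8 and 0 reads in milk exosomes against 0, 3 and 4 reads in milk. It was above 0 in all 4 shallow libraries and listed at 0 in both deep ones, where 3 reads would be worth at most 0.281. Its values in the shallow libraries, 3 to 8 reads, were thus 153-fold to 560-fold the limit that a 0 allows in a deep library. These folds leave out the counting error of the 3 to 8 reads. PC-3p-169372_2 had 18.01, 19.7 and 0 in milk exosomes, against 0, 14.3 and 41.5 in milk, which is 2, 1 and 0 reads in milk exosomes against 0, 1 and 3 reads in milk. The related entry hsa-miR-3168_R+1_1ss14AC had 117, 1238 and 0 in milk exosomes, against 0, 903 and 443 in milk. All 3 sequences were thus listed above 0 in the 4 shallow libraries and at 0 in both deep libraries. This pattern was found in 2 of the 33 candidates (6.06%) and in 11 of the 832 named entries (1.32%). Those 11 include hsa-miR-3168_R+1_1ss14AC itself and ssc-miR-885-5p. The rest of the 11 carry names from plants, such as zma-miR166a-3p and gma-miR6300_R+6. Library adapter sequences were not used here, and neither the candidates nor these named entries were compared with them. Whether these reads came from RNA of the fluids or from the library kit was not tested.

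The 4 candidates with the run TTCCCGTGG also weighed most in shallow libraries. Together they had 10, 14 and 17 reads in milk exosome 1, 2 and 3, against 2, 2 and 9 in milk 1, 2 and 3. As a share of all candidate signal this was 23.3%, 45.2% and 2.92% in the milk exosome libraries, against 0.224%, 20% and 25.0% in the milk libraries. PC-5p-72206_6 had 27.0, 78.6 and 0 in milk exosomes, against 0, 0 and 83.0 in milk, or 3, 4 and 0 reads in milk exosomes against 0, 0 and 6 reads in milk. PC-3p-615920_1 had 1 read in each of milk exosome 2, milk 2 and milk 3. Of the 4, PC-3p-34295_15 alone was seen in the deep libraries, with 1.59 in milk exosome 3 and 0.152 in milk 1, and it had 9.01 and 19.7 in milk exosome 1 and 2, against 14.3 and 0 in milk 2 and 3.

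PC-5p-20492_29 was above 0 in 5 libraries and had the highest count of any candidate in a shallow library. Its signal was 135.1, 59.0 and 0.281 in milk exosomes, against 0.607, 0 and 27.7 in milk, or 15, 3 and 3 reads in milk exosomes against 8, 0 and 2 reads in milk. In PC-5p-3980_260, with 63 reads in milk exosome 3 and 59 in milk 1, the signal was 0, 19.7 and 5.90 in milk exosomes, against 4.48, 14.3 and 0 in milk. The shallow values of PC-5p-3980_260 were 1 read each, so the deep libraries hold nearly all its evidence. The values of PC-5p-31109_17 were 9.01, 19.7 and 0.656 in milk exosomes, against 0.152, 14.3 and 0 in milk, and those of PC-5p-123376_3 were 9.01, 0 and 0.0937 in milk exosomes, against 0.152, 0 and 13.8 in milk.

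The deep libraries gave the best counted values, 1 library of each fluid, so that their ratios compare those libraries and not the fluids. In both, 26 candidates were above 0. PC-5p-1939_837 had a signal of 2.53 in milk exosome 3 and 21.6 in milk 1, or 27 read equivalents in milk exosome 3 against 284.5 in milk 1, the highest count of any candidate in any library. Its ratio of milk exosome 3 over milk 1 was 0.117, with an exact 95% interval of 0.0760 to 0.174. The other 3 candidates tied to it by sequence had the next lowest ratios of the 26. PC-3p-7667_104, its partner in the 20-base helix, had 0.890 in milk exosome 3 and 5.66 in milk 1, a ratio of 0.157 (0.0768 to 0.324). PC-5p-9504_79, its shifted copy, had 1.69 in milk exosome 3 and 5.05 in milk 1, a ratio of 0.334 (0.188 to 0.574). PC-3p-30050_18, complementary to its first 12 bases, had 1.03 in milk exosome 3 and 2.51 in milk 1, a ratio of 0.411 (0.187 to 0.834).

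All 4 of these intervals lie below 1, and all 4 candidates were listed at 0 in every shallow library, where 1 read is worth at least 9.01. Their values were in part fractions of a read, and the sources used here do not state how reads that match more than 1 entry were assigned. The candidates of the other duplex pair had ratios above 1. PC-5p-7842_101 had 2.72 in milk exosome 3 and 1.90 in milk 1, a ratio of 1.43 (0.809 to 2.55). PC-3p-26218_22 had 1.12 in milk exosome 3 and 0.607 in milk 1, a ratio of 1.85 (0.696 to 5.22). Both intervals include 1. In the shallow libraries PC-5p-7842_101 had 1 read in milk exosome 2 and PC-3p-26218_22 had 2 reads in milk exosome 1, and both were at 0 in milk 2 and 3.

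**Figure D4:**
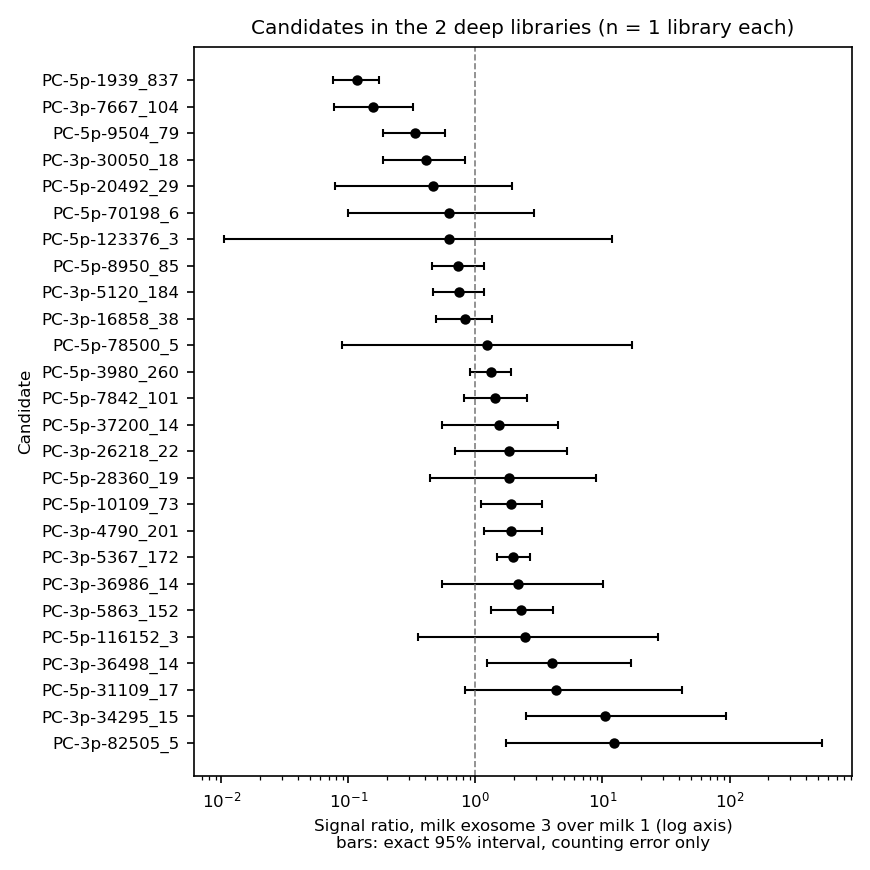
Ratio of signal in milk exosome 3 over milk 1 (log axis) for the 26 candidates above 0 in both deep libraries, with exact 95% intervals that cover counting error only and a dashed line at 1. The 4 lowest ratios, 0.117 to 0.411, belong to PC-5p-1939_837 and the 3 candidates related to it by sequence.

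Of the 26 ratios, 4 had an interval below 1, 7 an interval above 1 and 15 an interval that includes 1. The 4 below 1 are the candidates related by sequence. No such count is given for the other entries, and a ratio of 1 is not their midpoint, so this split is not a result about the candidates as a set. Among 272 other entries with 10 to 500 reads in both deep libraries the median ratio was 1.19, with 176 higher in milk exosome 3. The 12 candidates in that range had a median of 1.07, with 6 higher. The intervals of PC-3p-4790_201 and PC-5p-10109_73, given next, include 1.19. Among the 7 above 1 with PC-3p-5367_172, PC-3p-5863_152 had a ratio of 2.29 (1.32 to 4.10) at 39 reads in milk exosome 3 and 21 in milk 1, and PC-3p-4790_201 and PC-5p-10109_73 had ratios of 1.91 (1.16 to 3.31) and 1.90 (1.11 to 3.32). PC-3p-34295_15 had 17 reads in milk exosome 3 and 2 in milk 1, a ratio of 10.5 with an interval of 2.49 to 93.6. PC-3p-36498_14 had a ratio of 4.01 (1.24 to 16.9) and PC-3p-82505_5 a ratio of 12.3 (1.76 to 535), the second of these from 10 reads in milk exosome 3 and 1 read in milk 1. PC-5p-8950_85 and PC-3p-16858_38, which carry seeds of pig entries, had ratios of 0.735 (0.456 to 1.17) and 0.822 (0.491 to 1.36), whose intervals include 1. PC-3p-5120_184 had 32 reads in milk exosome 3 and 53 in milk 1, a ratio of 0.745 (0.465 to 1.18). Among entries with 10 to 500 reads in both deep libraries, 8 of 12 candidates (66.7%) had ratios within 2-fold of equal signal, against 243 of 272 other entries (89.3%). The candidates outside that range were PC-3p-5863_152 and the sequence-related PC-5p-1939_837, PC-5p-9504_79 and PC-3p-30050_18. The 12 are therefore not independent sequences, and the lower share is not a trait of the candidates as a set. The ratios of those 272 ran between 0.208 and 6.71, and the 0.117 of PC-5p-1939_837 lay outside that range.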

How the data were processed

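Trizol RNA entered the TruSeq Small RNA kit and was read as 36 bp single ends on an Illumina HiSeq, per the labels' protocols. Entries carry signal deposited by the authors, a normalized abundance; the sources used here do not state the aligner, the prediction tool, the normalization or any filter. Of 1382 lines, 140 exact repeats were dropped. Libraries above 165715 read equivalents, the geometric mean of the lowest and highest, were called deep. The signal is not a count, so no count model was used: log2(signal + 1) was fitted in R 4.3.3 by limma 3.58.1, using an intensity trend, with p-values adjusted over all 865 entries by the Benjamini-Hochberg method, after the script was tested on simulated data. Shares and numbers were compared by exact permutation tests (Python 3.11.15, scipy 1.17.1), and duplexes were folded with ViennaRNA RNAduplex 2.7.2. A value of 0 allows up to 3 reads; intervals and floors cover counting error only, since these reads carry no molecular identifiers. Named candidates are the 10 with the highest mean, those above 0 in 4 or more libraries, the 5 with the smallest p in each direction, and those sharing a pig seed or 12 bases in a row with another candidate; others were named after their values were seen. The members and lists were chosen with earlier results of these data known. Equal replicate numbers were not treated as pairs. Alternatives were a replicate block, other pseudocounts, filters, scalings and denominators, no trend, 1 entry per sequence, the 4 shallow libraries alone and each library left out.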

Additional observations from a re-analysis of the deposited data

How the results depend on the processing

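No candidate was called under any of the 16 other settings of the fit. With the replicate block, 0 of 33 candidates and 0 of 865 entries were called. Some settings tested fewer, such as 13 candidates among 359 entries in the 4 shallow libraries alone. Without milk exosome 3, 3 of 504 entries were called, none a candidate. In the 4 shallow libraries alone the smallest adjusted p of a candidate in limma was 0.119. Deviations of equally numbered libraries from their group means correlated at -0.191, 0.220 and -0.398 for numbers 1, 2 and 3. The deep libraries, milk exosome 3 and milk 1, carry different numbers. Depth therefore enters these correlations, and they cannot decide whether equal numbers mark the same animal. The column names of the 2 deep libraries share the stem MF. Equal endings of the other column names join milk 2 with milk exosome 1 and milk 3 with milk exosome 2, which differ in number. The sources used here do not state what these names mean. The replicate block and the correlations used the numbers in the labels, and pairs by column name were not tested. The difference in share turned to 0.0177 percentage points without milk exosome 3 and to 0.250 without milk 3, with a range of -0.371 to 0.250 when 1 library was left out. The difference in number turned to -2.17 without milk exosome 3, -1.83 without milk 2 and -0.333 without milk 3, with a range of -2.17 to 8.17, and was 0.0 when 2 or more reads were required. Of 137 other values for the log2 fold changes of 10 named candidates, 134 kept their direction. Part of this count was fixed in advance. The replicate block, no filter, no trend and 1 entry per sequence left each of these fold changes unchanged. The 10 candidates were also picked by the smallest p in each direction from these same data. With 1 library left out, PC-5p-28360_19 ran between -2.88 and 0.023 and PC-3p-82505_5 between -1.68 and 0.27, both positive without milk 3, and PC-3p-36498_14 ran between -1.78 and 0.19, positive without milk 2; the cause was not tested. PC-5p-50953_9 ran between 1.28 and 4.93 and PC-5p-70198_6 between -2.12 and -0.15. A filter of 10 or more in 3 libraries left 6 candidates to test, and some settings gave no value for a candidate no longer tested.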
